A study of Mus musculus with 2 samples.

Results

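The genes described here encode 10 cytokines of type 17, type 1 and type 2 immune responses in skin: Il6, Il17a, Il17f, Il22, Il23a, Tnf, Ifng, Il4, Il13 and Tslp. They were chosen by symbol from the 18855 genes that the arrays name, and all 10 were found, on 11 probes. Dorsal skin of mouse pups was compared on 2 arrays with 2 dyes each, 1 at 9 days of age (P9) and 1 at 1 day (P1). On both arrays RNA of Mpzl3 null (-/-) pups carried Cy5 and RNA of their wild-type (+/+) littermates of the same age carried Cy3, so dye and genotype cannot be told apart. Mpzl3 is named as a relative of myelin protein zero, a cell adhesion protein of the membrane. Of limits on the model, the sources used here do not give how the null allele was made, the strain or any pooling of pups.

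The values are taken as log2 ratios, null over wild type, and a positive one means a higher signal in the null channel. They are differences between channels and not levels. With 1 array per age there was no replicate, no test and no p-value. The yardstick used is the SD between probes of 1 gene on 1 array, 0.36 log2 at each age or 1.28-fold, pooled over 7735 genes at P9 and 7442 genes at P1, which leaves out variation between animals. A gene is called where the mean of its probes reached 2-fold in size and no probe had the other sign.

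The channels of the P9 array also differed in sex-linked transcripts. Xist, transcribed from the inactive X chromosome, was at 3.67 ± 1.05 at P9 (SD, 4 probes), against −1.03 ± 0.77 at P1 (SD, 4 probes). The Y-linked Eif2s3y was at −3.98 at P9 and Kdm5d, also Y-linked, at −1.765, and both were blank at P1. Uty, the other Y-linked gene measured, was at −1.99 ± 1.46 at P9 (SD, 4 probes), against 0.33 ± 0.57 at P1 (SD, 2 probes). It was not called at P9, where not all of its probes lay below 0. The part of these differences in any value below was not tested. Mpzl3 itself was at 0.20 at P9, against −0.21 at P1, each on 1 probe of unstated place relative to the deleted part, so it checks no label. Markers that define skin cannot be checked for presence, since the table holds ratios and not levels; Krt5 and Krt14 of the basal layer had values at P1 and were blank at P9, and Krt10 of the suprabasal layer had the opposite pattern.

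As background, type 17 responses run through IL-23, made by myeloid cells, and IL-6, which acts on T cells together with TGF-β. T cells and innate lymphoid cells then make IL-17A, IL-17F and IL-22, whose receptors on keratinocytes switch on antimicrobial peptides and chemokines. Type 1 responses are led by IFN-γ, and TNF acts broadly through NF-κB. In type 2 responses the epithelial cytokine TSLP acts on dendritic cells and lymphoid cells, and IL-4 and IL-13 signal through the shared receptor chain IL-4Rα to STAT6. Many of these cytokines are made by few cells in skin, and in whole skin fewer cells of a type and less RNA per cell cannot be told apart.

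The promoters of Il6, Il4 and Tnf are shown because Il6 and Il4 had the largest differences between the ages and Tnf had the smallest. Each run is the 250 bases upstream of a RefSeq start, on the gene's strand and 5′ to 3′, from RefSeq on GRCm38.p6. Il6 lies at chr5:30012864-30013113 (plus strand), Il4 at chr11:53618666-53618915 (minus strand, the more upstream of 2 listed starts) and Tnf at chr17:35202008-35202257 (minus strand). Capitals mark matches, on either strand, to GGANTTTCC (NF-κB), TGANTCA (AP-1), TTGNGCAAT (C/EBP), GGAAAA (the NFAT core) or TATAAA (the TATA box).
Il6: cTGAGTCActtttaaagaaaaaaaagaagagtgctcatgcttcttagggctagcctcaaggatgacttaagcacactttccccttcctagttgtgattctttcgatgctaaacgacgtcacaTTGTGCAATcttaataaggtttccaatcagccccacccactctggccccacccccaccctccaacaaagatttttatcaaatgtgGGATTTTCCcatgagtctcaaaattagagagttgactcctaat
Il4: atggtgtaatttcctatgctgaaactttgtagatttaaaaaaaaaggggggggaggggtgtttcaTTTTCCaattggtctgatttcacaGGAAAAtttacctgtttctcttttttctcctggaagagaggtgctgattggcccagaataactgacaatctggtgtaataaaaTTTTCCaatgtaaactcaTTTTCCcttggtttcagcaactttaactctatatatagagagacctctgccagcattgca
Tnf: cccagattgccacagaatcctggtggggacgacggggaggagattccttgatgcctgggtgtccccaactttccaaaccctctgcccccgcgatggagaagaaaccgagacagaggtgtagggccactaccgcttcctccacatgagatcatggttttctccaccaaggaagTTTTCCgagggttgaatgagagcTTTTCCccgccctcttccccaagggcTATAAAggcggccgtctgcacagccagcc
In Il6 the NF-κB match GGATTTTCC lay 43 to 35 bases upstream of the start and contains an NFAT core on the other strand, the C/EBP match lay 128 to 120 bases upstream, and the AP-1 match 249 to 243 bases upstream. Il4 had 4 NFAT core matches in this window, and Tnf had 2 together with a TATA match 29 to 24 bases upstream. Of 32851 promoters searched over the same length, 1.07% held the NF-κB letters, 6.75% the AP-1 letters, 0.539% the C/EBP letters, 20.4% the NFAT core and 12.4% the TATA letters. Promoters were found for 8 of the 10 cytokine genes, in 9 windows. Of these windows, 2 held the NF-κB letters (Il6 and Il13), 2 AP-1, 1 C/EBP, 5 the NFAT core and 6 TATA. The AP-1 matches were not alike, with TGAGTCA in Il6 and TGAATCA in Il17a. A match is a description of letters and was not read as a binding site. Il23a and Tslp had no entry.

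No cytokine was called at either age. Of the 9 with a value at P9, 0 passed 2-fold, against 2.7% of all genes, and of the 9 with a value at P1, 0 passed, against 2.88% of all genes. Their median log2 ratio was 0.07 at P9, against −0.18 at P1, and the medians of all genes were 0.02 at P9 and 0.06 at P1. Above 0 were 7 of 9 at P9, against 53.4% of all genes, and 3 of 9 at P1, against 55.8% of all genes. At 1.5-fold, 0 of 9 passed at P9, against 9.48% of all genes. At P1, 3 of 9 passed 1.5-fold, against 16.0% of all genes, and these were Il6, Il4 and Tslp, all lower in null skin, where 6.92% of all genes were lower by as much.

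**Figure D1:**
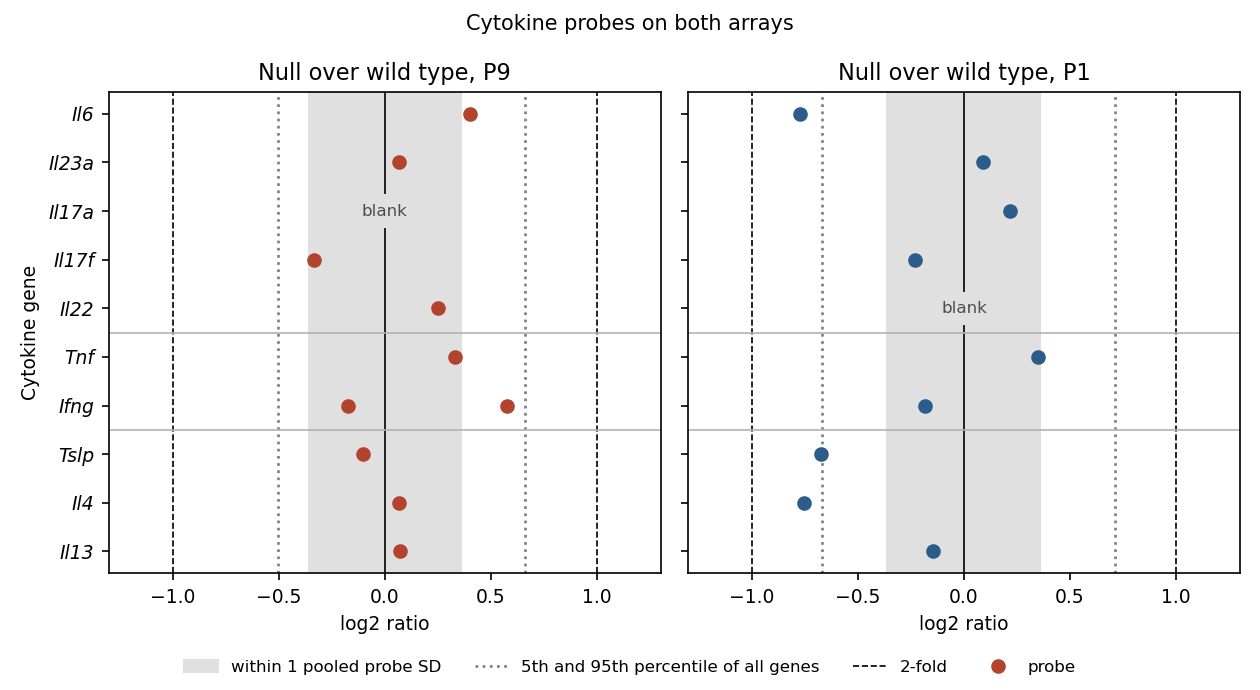
Log2 ratios of null over wild type for each probe of the 10 cytokine genes (rows) at P9 (left) and P1 (right); grey bands are 1 pooled probe SD to each side of 0, dotted lines the 5th and 95th percentiles of all genes and dashed lines 2-fold. Il6, Il4 and Tslp lie between −0.77 and −0.68 at P1, left of the 5th percentile line at −0.67, and no probe reaches 2-fold.

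Among the type 17 genes, Il6, the ligand of IL-6Rα and gp130, had the lowest value of the cytokines at P1 and the highest at P9. Its single probe was at 0.40 at P9, or 1.32-fold higher in null skin, against −0.77 at P1, or 1.71-fold higher in wild-type skin. These values lay at the 87.7 percentile of all genes at P9 and the 3.14 percentile at P1. The P9 value was 1.12 times the pooled probe SD in size and the P1 value 2.14 times.

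Il23a, which encodes the p19 subunit of IL-23, stayed close to 0, at 0.07 at P9 and 0.09 at P1. Il17f, whose product acts on keratinocytes and fibroblasts through IL-17RA and IL-17RC, was at −0.34 at P9, against −0.23 at P1, below 0 at both ages and within the probe SD. Il17a, which encodes the more potent partner of IL-17F, was blank at P9 and at 0.22 at P1. Il22, which encodes a ligand of epithelial cells, was at 0.25 at P9 and blank at P1. For Il17a and Il22 the ages can therefore not be compared, and the sources used here do not give what left a cell blank.

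Of the type 1 genes, Tnf had nearly the same value at both ages, 0.33 at P9 and 0.35 at P1, each just within the probe SD. Ifng was the only one of the 10 genes with 2 probes. At P9 these probes disagreed in sign, at −0.17 and 0.57, with a mean of 0.20 ± 0.53 (SD, 2 probes). The second was blank at P1, where the first was at −0.18. On the probe with values at both ages, Ifng thus differed by 0.01 between P9 and P1, whereas the means over available probes differed by 0.38.

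The type 2 genes lay near 0 at P9 and below 0 at P1. Il4, which drives T helper 2 differentiation and IgE switching, was at 0.07 at P9, against −0.75 at P1, a 1.69-fold higher signal in wild-type skin at P1. Tslp was at −0.10 at P9, against −0.68 at P1, or 1.60-fold higher in wild-type skin at P1. Il13, which acts on epithelium and fibroblasts, was at 0.07 at P9, against −0.15 at P1. At P1, Il4 lay at the 3.50 percentile of all genes, Tslp at the 4.83 percentile and Il13 at the 31.2 percentile, so that Il13 was within the probe SD and the other two were beyond it.

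Of the 8 genes with a value at both ages, 2 were above 0 at both (Il23a and Tnf), 2 below 0 at both (Il17f and Tslp), and 4 above 0 at P9 and below 0 at P1 (Il6, Ifng, Il4 and Il13), against 11.6% of all genes with the last pattern and 25.5% with opposite signs in either order. The difference of P9 minus P1 was above 0 for 5 of the 8, against 48.1% of all genes, or for 7 of the 8, against 53.1% of all genes, once each array was centred on its median, where Il23a and Tnf moved just above 0. It was 1.17 for Il6, 0.82 for Il4, 0.57 for Tslp, 0.38 for Ifng and 0.22 for Il13, and −0.02 for Tnf, −0.03 for Il23a and −0.10 for Il17f. The SD of this difference between probes of 1 gene was 0.29, pooled over 7049 genes. Il6, Il4 and Tslp exceeded it, and so did Ifng by its means alone. Of all genes, 0.625% had a difference of at least 1, and Il6 was the only cytokine among them. The median difference of the 8 genes was 0.30, or 0.11 over probes with a value on both arrays, against −0.01 over all genes.

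**Figure D2:**
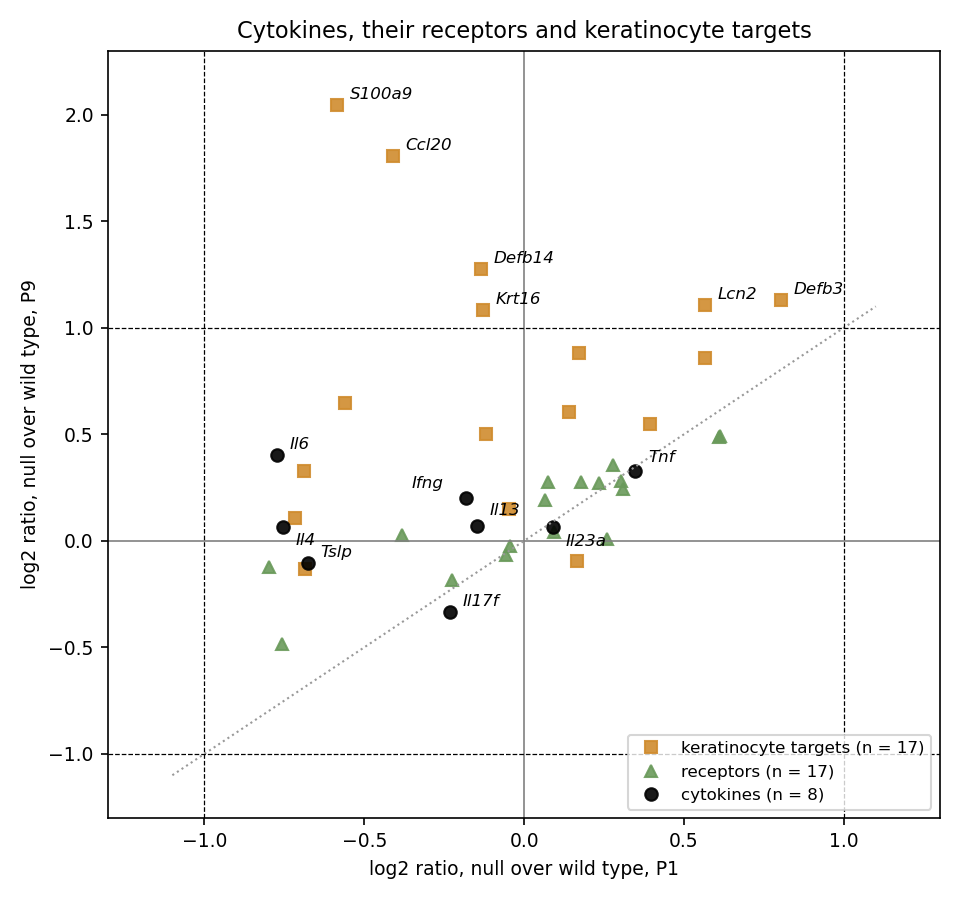
Log2 ratios of null over wild type at P1 (x axis) and P9 (y axis) for the 8 cytokine genes measured on both arrays, 17 receptor genes and 17 keratinocyte target genes; the dotted line marks equal values and dashed lines mark 2-fold. Tnf, Il23a and Il17f lie on or near the line, Il6 and Il4 lie above it on the left, and 6 target genes lie above 2-fold at P9.

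By distance over the 2 arrays among 215 genes of the other lists used here, the genes with values most like Il6 were S100a8, a subunit of calprotectin, at 0.33 at P9 and −0.69 at P1 (distance 0.11 log2), and Nfkbiz, an NF-κB cofactor, at 0.11 at P9 and −0.72 at P1 (distance 0.30). Nearest to Tnf were Il27 (distance 0.0063) and Csf3r (0.06), and nearest to Il17f were Gbp6 (0.07) and Jak1 (0.10). With 2 arrays this is a description of values.

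The receptors of the 10 cytokines had a median of 0.19 at P9, with 12 of 17 above 0, against 0.09 at P1, with 11 of 17 above 0. Over all genes, for this list and those below, 53.4% lay above 0 at P9 and 55.8% at P1. Of the receptors, 0 of 17 passed 2-fold at either age, against 2.7% of all genes at P9 and 2.88% at P1. Il4ra, the chain shared by IL-4 and IL-13, was at 0.49 at P9 and 0.61 at P1. Il6ra, the IL-6 binding chain, was at 0.49 ± 0.16 at P9 and 0.61 ± 0.33 at P1 (SD, 2 probes). Il10rb, a chain of the IL-22 receptor, was below 0 at both ages, at −0.48 ± 0.49 at P9 and −0.76 ± 0.65 at P1 (SD, 2 probes). Il13ra1 was at −0.12 ± 0.14 at P9, against −0.80 ± 0.09 at P1 (SD, 2 probes). Crlf2, which encodes the TSLP receptor, was close to 0, at −0.07 at P9 and −0.06 at P1, and the IL-17 receptor chain gene Il17rc was at 0.36 ± 0.21 at P9 and 0.28 ± 0.19 at P1 (SD, 2 probes).

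Signal transducers, the kinases, adaptors and STAT proteins downstream of these receptors, had a median of 0.11 at P9, against 0.18 at P1, and 0 of 15 passed 2-fold at either age, against the same shares of all genes. Stat5a was at 0.44 at P9 and 0.86 at P1, Stat3 at 0.44 ± 0.08 at P9 and 0.29 ± 0.13 at P1 (SD, 2 probes), and Stat6 was near 0, at −0.03 ± 0.50 at P9 and 0.00 ± 0.47 at P1 (SD, 3 probes). Jak2 was at −0.07 ± 0.19 at P9, against −0.76 ± 0.65 at P1 (SD, 2 probes). Among 13 inhibitors and decoys the median was 0.15 at P9, against 0.06 at P1. Of these, 1 passed 2-fold at P9, where 2.24% of all genes were called higher, and 0 passed at P1. It was Il13ra2, the decoy receptor of IL-13, at 1.20 at P9, against 0.06 at P1. Socs1, which restrains JAK kinases, was at 0.99 at P9 and 0.33 at P1, and Socs3, an inhibitor of gp130 signalling, at 0.45 at P9 and −0.03 at P1.

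Genes that IL-17A, IL-22 and TNF are known to induce in keratinocytes differed more between the channels at P9 than the cytokine genes did. Of the 18 with a value at P9, 6 passed 2-fold, all higher in null skin, against 2.24% of all genes called higher. Of the 18 with a value at P1, 0 passed in either direction, against 2.88% of all genes. Their median was 0.62 at P9, with 15 of 18 above 0, against −0.12 at P1, with 7 of 18 above 0. Many of these genes are known from inflamed or injured epidermis in general and respond to other signals too, and they were listed with earlier results of these arrays known.

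The 6 called genes were S100a9, the partner of S100a8, at 2.04 at P9 and −0.58 at P1; the chemokine gene Ccl20 at 1.81 at P9 and −0.41 at P1; and the β-defensin genes Defb14 and Defb3, the lipocalin gene Lcn2 and the keratin gene Krt16, all between 1.08 and 1.27 at P9. Of these, Defb3 and Lcn2 were also above 0 at P1, at 0.80 and 0.57. Cxcl5, a neutrophil chemoattractant, was at 0.65 at P9 and −0.56 at P1. Vnn1, Il24 and Csf3 were below 0 at P9. S100a9 is also a neutrophil marker. Over all 9 measured neutrophil markers the median was 0.29 at P9, with 6 of 9 above 0, from −1.05 for Camp, called lower, to 2.04 for S100a9. At P1 the median was 0.29 over 8 genes, from −0.69 for S100a8 to 0.63 for Elane. Keratinocyte markers had a median of 0.50 at P9 over 7 genes, from −0.36 to 0.96. At P1 their median was −0.01 over 9 genes, from −1.03 for Dsg1a, called lower, to 0.66. Once the arrays were scaled to 1 spread, the call of Dsg1a ended and Flg was called higher at P9. Of all genes, 0.465% were called lower at P9 and 1.17% at P1. The part of these cells in the target values was not tested.

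**Figure D3:**
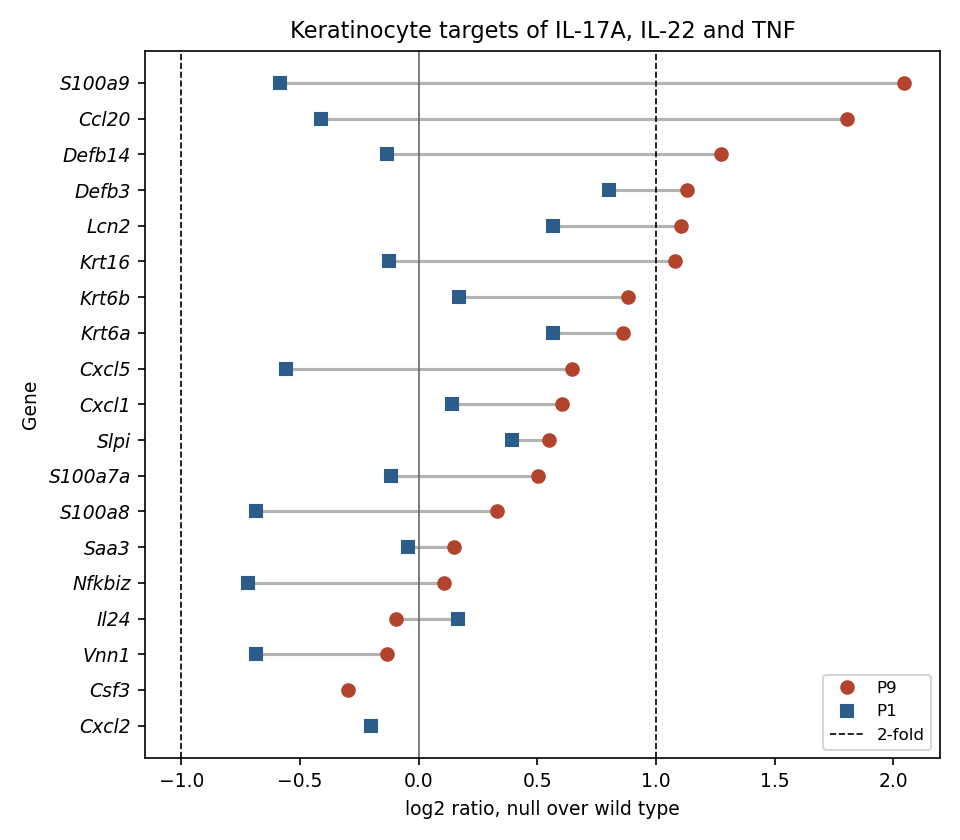
Log2 ratios of null over wild type for the 19 keratinocyte target genes with a value, at P9 (circles) and P1 (squares), joined where both were measured, with dashed lines at 2-fold. S100a9 and Ccl20 have the widest gaps, at 2.04 and 1.81 at P9 against −0.58 and −0.41 at P1.

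The other target lists held few called genes. Targets of IL-6 through STAT3, with acute phase genes, had a median of 0.23 at P9 and 0.31 at P1, with 12 of 13 above 0 at P9 and 11 of 15 above 0 at P1; only Lrg1 passed 2-fold, at 1.14 at P1, against 0.11 at P9. Targets of TNF and NF-κB had a median of 0.09 at P9 and −0.08 at P1, and only Tnfaip2 passed, at 1.17 at P1, while it was at 0.98 at P9. Ccl2, a monocyte chemoattractant of this list, was at 0.81 at P9 and −0.41 at P1, and Ptgs2, which encodes cyclooxygenase-2, was at 0.09 ± 0.07 at P9 and −0.90 ± 0.09 at P1 (SD, 2 probes). Where 1.72% of all genes were called higher at P1, these are 1 of 15 and 1 of 16 genes.

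Targets of IFN-γ had medians of −0.11 at P9 and −0.09 at P1, with 7 of 18 above 0 at P9 and 7 of 19 at P1. At P1, 2 were called lower, against 1.17% of all genes. These were the interferon-inducible GTPase genes Iigp1, at −0.98 at P9 and −1.35 at P1, and Gbp3, at −0.84 at P9 and −1.33 at P1. Cxcl10, a chemoattractant of T cells, was at −0.92 at P9 and −0.50 at P1. On the other side of 0, Socs1 had the largest size of the list at P9, at 0.99, and was at 0.33 at P1. Ido1 was at 0.56 at P9 and 0.30 at P1, and Psmb8 at 0.41 ± 0.03 at P9 and 0.16 ± 0.04 at P1 (SD, 2 probes). Many of these genes also respond to type I interferons.

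Targets of IL-4 and IL-13 had medians of −0.14 at P9 and −0.10 at P1, with 7 of 15 above 0 at P9 and 6 of 15 at P1. The decoy receptor Il13ra2, given above, was the only one past 2-fold. Postn, which encodes periostin, was at −0.14 ± 0.38 at P9 and −0.84 ± 0.15 at P1 (SD, 2 probes), and Alox15, a lipoxygenase, was at 0.78 at P9 and 0.26 at P1. The macrophage genes of this list did not share a sign at P9, where Chil3 was at 0.60 and Retnla at −0.50 ± 0.09 (SD, 2 probes).

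**Figure D4:**
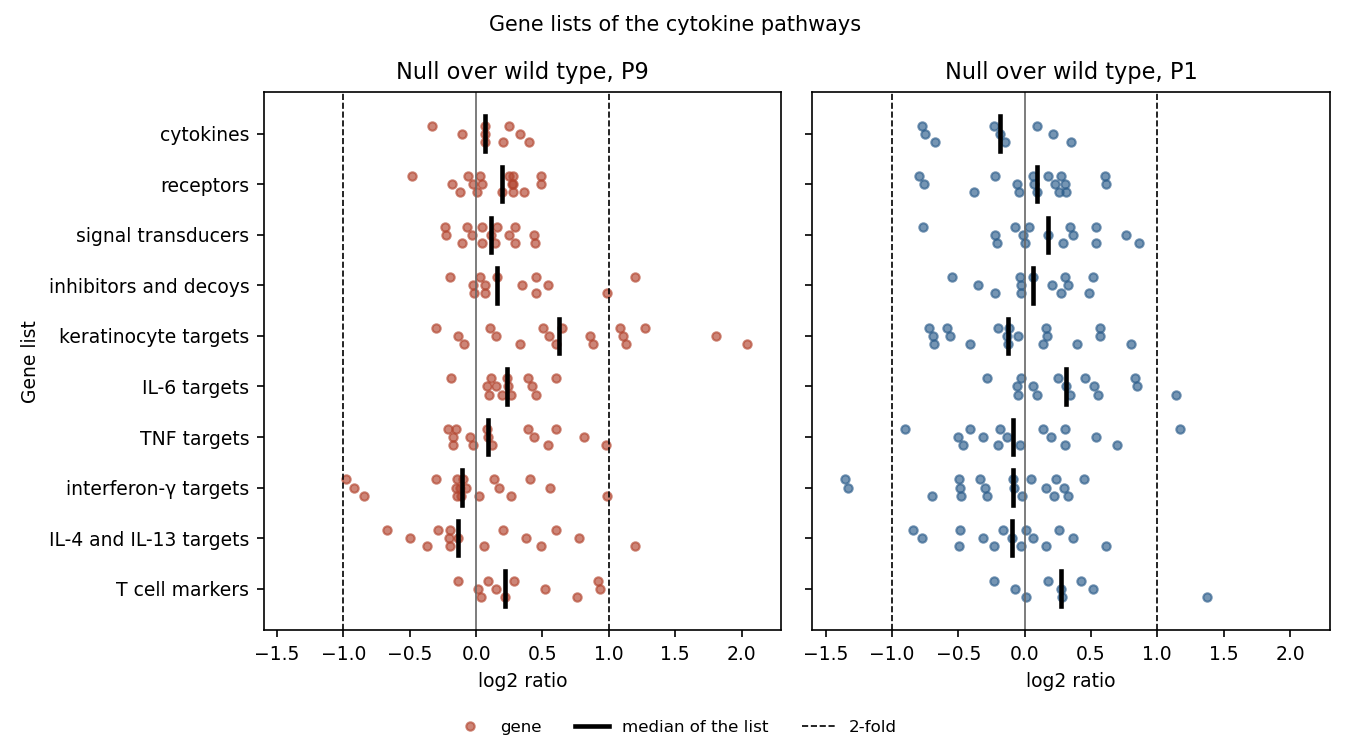
Log2 ratios of null over wild type for each gene (points) of 10 lists, at P9 (left) and P1 (right), with the list median as a black bar and dashed lines at 2-fold. The keratinocyte targets have the highest median at P9, 0.62, while the medians of the other lists shown lie between −0.14 and 0.23 at P9 and all 10 lie between −0.18 and 0.31 at P1.

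Cells that can make these cytokines were followed by their markers; over all genes 2.7% were called at P9 and 2.88% at P1. T cell markers had a median of 0.22 at P9, with 10 of 11 above 0 and values from −0.14 to 0.94, against 0.28 at P1, with 7 of 9 above 0 and values from −0.23 to 1.37. Cd4 was the only one called, or was joined by Cd5 and Lat at P9 once the arrays were scaled to 1 spread. Cd4 was at 0.52 ± 0.95 at P9 (SD, 2 probes), against 1.37 on 1 probe at P1, where it was called. These values rest on unlike sets of probes. Over probes with a value on both arrays, Cd4 was called higher at P9 as well as at P1. Of the CD3 chain genes, Cd3e was at 0.76 ± 1.47 at P9 and 0.28 ± 0.87 at P1 (SD, 2 probes) while Cd3g was at −0.14 at P9 and −0.23 at P1. Only 3 of 7 γδ T cell markers were measured at P9 and 2 at P1, none of them a receptor chain. Blk was at 1.01 at P9, a call that ended at 0.99 once the arrays were centred, and blank at P1. Cd163l1 was at 0.64 at P9 and 0.26 at P1, while Sox13 was at −0.74 at P9 and −0.27 at P1. Innate lymphoid and NK cell markers had a median of 0.06 at P9 and −0.13 at P1, over 7 genes each, and 0 of 7 passed at either age, or 1 of 7 at P9, Nkg7, once the arrays were scaled to 1 spread. Mast cell markers had a median of −0.07 at P9, over 10 genes, and of 0.12 at P1, over 9 genes. Ms4a2 was at 1.00 at P9, a call that ended at 0.98 once the arrays were centred, and blank at P1, and Mrgprb2 was at −0.75 at P9, against −1.18 at P1, where it was called lower. Macrophage and dendritic cell markers had a median of 0.23 at P9 and 0.15 at P1, over 14 genes each; Itgax, which encodes CD11c, was the only one past 2-fold, at 1.12 ± 0.67 at P9, against 0.70 ± 0.62 at P1 (SD, 2 probes). The part of these cells in the cytokine values was not tested.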

How the data were processed

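Skin RNA was amplified to amino allyl RNA, coupled with Cy3 or Cy5 and hybridised to Agilent Whole Mouse Genome arrays, per the labels' protocols. The authors deposited log2 ratios for 39212 rows, with a column for each array. How background and dyes were corrected and what left cells blank (4.71% at P9, 11.3% at P1) were not given in the sources used here. No intensities were used, so dim spots could not be set apart. Base 2 was inferred from the values, whose largest size of 4.898 is 29.8-fold in base 2; a natural logarithm cannot be told from it, and fold values and calls rest on this. Direction follows the dyes in the labels. There were 0 columns of unmapped samples.

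Of the probes, 31337 named 1 gene by the platform annotation. Of these, 31210 were matched by gene identifier to the RefSeq table of GRCm38.p6 and took its symbol. Another 40 probes named several genes and were left out. Probes of 1 gene were averaged. With 1 array per age, whose number limits the precision, no test was run. The genes named are all 10 cytokines with every probe and, from each list, those past 2-fold and a few of the largest or best known. The cytokines and all lists were chosen with earlier results of these data known, so patterns in them are not independent support. Alternatives changed the probe summary, centring, scale, probes, names, fold, sign rule, log base and summary over genes. Calculations were made in Python 3.11.15 with pandas 2.3.3, numpy 2.4.6 and matplotlib 3.10.9 and were tested on simulated data.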

Additional observations from a re-analysis of the deposited data

Results flagged for a closer look

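In 4 of the 8 cytokine genes with values at both ages the ratio had opposite signs on the arrays, against 25.5% of all genes. With 1 array per age the difference was not tested. Il6 was at 0.40 at P9 and −0.77 at P1, a difference of 1.17. Il4 was at 0.07 at P9 and −0.75 at P1, a difference of 0.82, and Il13 at 0.07 at P9 and −0.15 at P1, a difference of 0.22. Ifng was at 0.20 at P9 and −0.18 at P1, a difference of 0.38. On the probe measured at both ages it was below 0 at both, with a difference of 0.01. The P9 values of Il4 and Il13 lie within 0.1 of 0, so their signs rest on little.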

How the results depend on the processing

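No paired analysis was possible because each age has 1 array. The count of cytokines past 2-fold at P1, 0, became 3 at 1.5-fold (Il6, Il4 and Tslp) and 2 if the values are natural logarithms (Il6 and Il4), by construction of a lower threshold; at P9 it was 0 under all alternatives. The other 43 recomputed summaries of the cytokines moved by less than the probe SD or by at most 1.5 times the count; over probes measured on both arrays, 5 cytokines lay above 0 at P9 in place of 7, and 2 at P1 in place of 3, with Il22 and Il17a left out and Ifng below 0 at P9. The median at P9 ranged from 0.05 to 0.20, at P1 from −0.24 to −0.18, and the difference of the ages from 0.11 to 0.38. Of 88 recomputed cytokine values at single ages, 1 changed sign, Ifng at P9, at −0.17 on the probe measured on both arrays. Members with at least 2 probes could be summarised at P9 only, where Ifng alone has them. Centring removed 0.02 at P9 and 0.06 at P1; under it and under scaling the difference of P9 minus P1 changed sign for Il23a (0.01 and 0.02) and Tnf (0.02 and 0.12), and 7 of 8 differences were above 0. Centring also ended the calls of Blk and Ms4a2 at P9 and of Il5 and Il11 at P1, and added Iigp1 and Uty at P9. With both arrays scaled to 1 spread, which enlarged P9 values and shrank P1 values, 8 keratinocyte targets passed 2-fold at P9 in place of 6. Of the interferon-γ targets, 3 were called lower at P9 in place of 0, and 1, Socs1, was called higher in place of 0. The share of all genes called under this scaling was not computed. Il13ra2 was joined by Socs1 among the inhibitors and decoys. Lrg1 was no longer called at P1, and Tnfaip2 was called at P9 in place of P1.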

Other observations

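Transcription factors of T helper lineages were led by Tbx21, which encodes T-bet of type 1 cells, called higher at both ages on 1 probe, at 1.02 at P9 and 1.51 at P1. Ahr, a ligand-activated factor that supports IL-22 production, was at −0.91 at P9 and −1.14 at P1, called lower at P1 and, with the arrays scaled to 1 spread, also at P9. Gata3 of type 2 cells was at −0.24 at P9 and 0.01 at P1, and Foxp3 of regulatory T cells was blank at P9 and at 0.24 at P1. Irf4 was at 0.01 at P9 and 0.81 at P1, and Rora at 0.36 ± 0.22 at P9 and −0.22 ± 0.38 at P1 (SD, 3 probes). The median of the list was −0.04 at P9 over 7 genes and 0.05 at P1 over 8 genes. At P9, 1 of the 7 was called higher, against 2.24% of all genes. At P1, 1 of the 8 was called higher, against 1.72% of all genes, and 1 lower, against 1.17%.

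Among 26 related cytokine genes with a value at P9 the median was 0.02, and 1 of the 26 was called, against 2.7% of all genes, Il1b at 1.04 at P9, against −0.46 at P1. At P1 the median of 21 genes was 0.04, and the 2 of 21 called, against 2.88% of all genes, Il11 at 1.01 and Il5 at 1.00, were no longer called once the arrays were centred. Il5, a type 2 cytokine that acts on eosinophils, was at 0.02 at P9. At P1 it lay above 0, while Il4, of the same type 2 cytokine cluster, lay at −0.75. Il10 was at 0.75 at P9 and 0.10 at P1, and Ltb, a TNF family ligand, at 0.82 at P9 and 0.51 at P1. Il33, an epithelial alarmin, was at −0.57 at P9 and −0.15 at P1, and Il1a was at 0.10 at P9 and −0.69 at P1.

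Markers of other tissues differed as well. Muscle and fat markers had a median of 0.23 at P9 and 0.55 at P1 over 10 genes. At P1, 1 of the 10 was called, against 1.72% of all genes called higher. It was Acta1 of skeletal muscle, at 0.62 at P9 and 1.14 at P1, a call that ended once the arrays were scaled to 1 spread. Fibroblast markers had a median of −0.11 at P9 and −0.05 at P1 over 10 genes, with 2 above 0 at P9 and 5 at P1. Col1a1 was at 0.07 ± 0.25 at P9 and 0.32 ± 0.37 at P1 (SD, 2 probes). Col1a2 was called lower at both ages, at −1.20 at P9 and −1.12 at P1, and Dcn at P1, at −0.45 at P9 and −1.56 at P1, where 0.465% of all genes were called lower at P9 and 1.17% at P1. Their part in the cytokine values was not tested.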
